A study of Mus with 4 samples.

Results

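The genes of endoplasmic reticulum (ER) stress and protein folding were taken as 44 named members, and their m6A peaks were read from 2 peak lists of interscapular brown adipose tissue (iBAT). Members were matched by the gene symbol of each listed peak. Of the 44 members, 41 had a peak in at least 1 list, with 62 of the 18400 *Wtap*flox/flox peaks and 72 of the 18693 *Wtap*-BKO peaks. *Ero1l*, *Ero1lb* and *Sec23a* had no listed peak under these symbols. No peak was listed under the current symbols *Ero1a* and *Ero1b* either, and no peak of any name lay inside the spans of these 3 genes. *Ero1l* and *Ero1lb* encode oxidases that recharge the disulfide-forming enzymes of the ER, and *Sec23a* encodes an inner coat subunit of the vesicles that leave it.

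The mice were C57BL/6 animals on normal chow, 8 weeks old. Controls carried the floxed *Wtap* alleles without Cre, and *Wtap*-BKO mice carried the same floxed alleles with *Ucp1*-iCre. Cre was expressed from the *Ucp1* locus, so iBAT cells without *Ucp1* expression keep *Wtap*. For each genotype, RNA pooled from 8 mice gave 1 m6A immunoprecipitate (IP) and 1 input, so there were 4 sequenced samples and no replicates. A peak is a stretch of transcript with more IP than input reads, and peaks were called within each genotype. With no spread between mice, differences between the genotypes have no test. The read depth is unknown, and where a list shows no peak, none had reached the authors' cutoff. *Wtap* itself had 4 peaks in each list, and a peak does not measure transcript level, so this does not check the genotype labels.

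Secretory and membrane proteins enter the ER through the translocon, fold there with the help of chaperones, and leave in coated vesicles. Proteins that fail to fold are drawn back to the cytosol and degraded, a process called ER-associated degradation. When unfolded proteins build up, sensors in the ER membrane start the unfolded protein response, which slows translation and induces chaperone and degradation genes. Brown adipocytes use this machinery for secreted and membrane proteins, and the ER-bound factor NFE2L1 sets their proteasome capacity during cold exposure. m6A is laid down on mRNA by the METTL3, METTL14 and WTAP complex and is often found near stop codons and in 3ʹ-untranslated regions.

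Most of these genes carried m6A peaks in both genotypes. Of the 41 members with a peak, 32 were listed for both genotypes. The 5 members *Creb3l2*, *Mogs*, *Sec61a1*, *Sec24a* and *Edem1* had peaks in controls alone, and the 4 members *Dnajc3*, *Hyou1*, *Man1a* and *Vcp* in *Wtap*-BKO mice alone. Over all 10105 symbols listed for either genotype, the shares were 73.3%, 13.5% and 13.2%, against 78.0%, 12.2% and 9.76% of the members. The members were therefore close to the background. A peak was counted as found when a peak of the other list covered 1 or more of its exonic bases on that strand. Of the member *Wtap*flox/flox peaks, 46 of 62 were found in the *Wtap*-BKO list (74.2%, 95% Wilson interval 62.1% to 83.4%), against 67.8% of all *Wtap*flox/flox peaks. Of the member *Wtap*-BKO peaks, 47 of 72 had a *Wtap*flox/flox peak on them (65.3%, interval 53.8% to 75.2%), against 68.0% of all. Both intervals hold the background value. Each list had 53 member peaks with a false discovery rate below 1e-05, of which 40 (75.5%, interval 62.4% to 85.1%) were found, against 79.6% of such *Wtap*flox/flox peaks and 84.6% of such *Wtap*-BKO peaks.

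**Figure D1:**
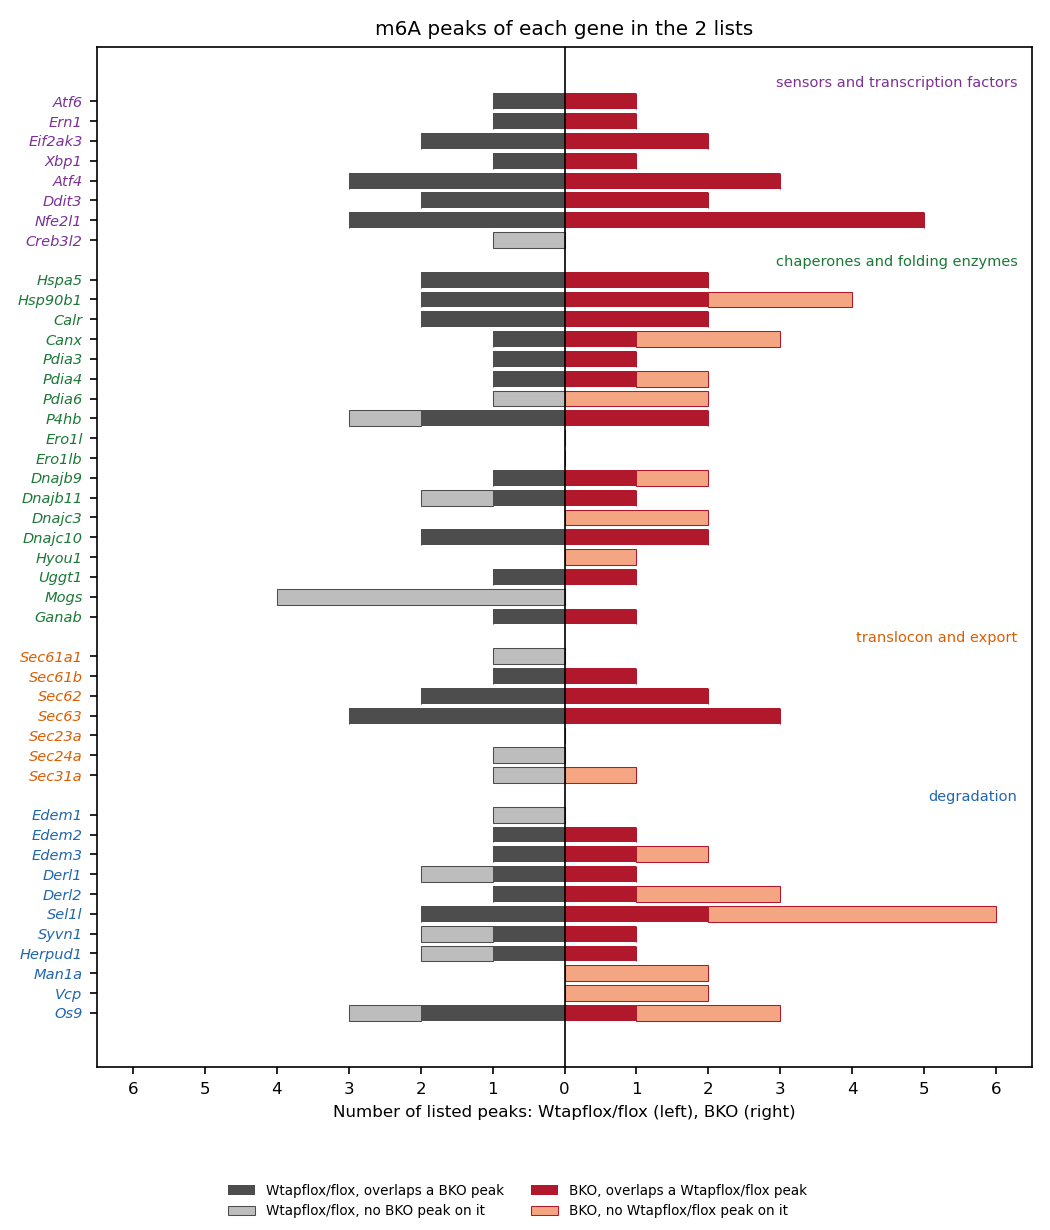
The number of listed m6A peaks is plotted for each of the 44 genes, *Wtap*flox/flox to the left and *Wtap*-BKO to the right, in 4 classes. Dark bars are peaks that overlap a peak of the other list and light bars are peaks that do not, and all 15 *Wtap*-BKO peaks of the sensor class are dark while 13 of 22 in the degradation class are light.

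The overlap of peaks was also counted by class. Among sensors and transcription factors, 13 of 14 *Wtap*flox/flox peaks and 15 of 15 *Wtap*-BKO peaks were found in the other list. Among chaperones and folding enzymes there were 17 of 24 and 17 of 28, and in the translocon and export class 6 of 9 and 6 of 7. In the degradation class, 10 of 15 *Wtap*flox/flox peaks were found, but 9 of 22 *Wtap*-BKO peaks (40.9%, interval 23.3% to 61.3%). The last interval lies below the 68.0% of all *Wtap*-BKO peaks. The peaks of 1 gene share a transcript, and *Sel1l* alone gave 4 of the 13 unmatched *Wtap*-BKO peaks of this class, so these intervals, which cover counting error only, are too narrow. No test between classes was made. By gene, 13 of the 37 members listed for controls had 1 or more peaks that were not found (35.1%, interval 21.8% to 51.2%), against 45.7% of all such genes. In *Wtap*-BKO mice there were 14 of 36 (38.9%, interval 24.8% to 55.1%), against 47.5%, and both intervals hold the background value.

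To set peaks of separately called lists side by side, the strength of each peak was expressed as the percent of its own list with a larger (weaker) false discovery rate. Member peaks stood high on this scale, with a median of 65.7% in controls and 60.7% in *Wtap*-BKO mice, where 50% would be the middle of the list. Their fold enrichment of IP over input stood low, with a median of 4.40 in *Wtap*flox/flox, higher than 32.5% of the list, and of 3.47 in *Wtap*-BKO, higher than 35.6% of that list. A peak on an abundant transcript can reach a small false discovery rate at a modest fold, but transcript levels are not part of the peak lists. For the same reason fewer cells of a type and less RNA per cell cannot be told apart in these tissue samples.

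Each found *Wtap*flox/flox peak was paired with the *Wtap*-BKO peak that shared most bases with it, which gave 46 member pairs. In 3 pairs, on *Nfe2l1*, *Hspa5* and *Sec62*, both false discovery rates were listed as 0 and have no order. Of the other 43, the *Wtap*-BKO peak stood lower in its list in 15 (34.9%, interval 22.4% to 49.8%), against 44.2% of 12428 pairs over all genes. Among the 43, the 3ʹ *Nfe2l1* pair had a rate listed as 0 in *Wtap*flox/flox only, and ties at 0 hold that peak at 99.2%. Its *Wtap*-BKO peak, at 99.5%, was counted as higher, but the order of this pair is not settled. The *Wtap*-BKO peak stood lower in 4 of 12 ordered pairs of sensors and transcription factors, and in 1 of 5 in translocon and export. Among chaperones and folding enzymes it stood lower in 3 of 16 ordered pairs (interval 6.59% to 43.0%). The median standing over these 16 pairs was 68.9% for *Wtap*flox/flox and 86.0% for *Wtap*-BKO peaks. In the degradation class it stood lower in 7 of 10, with medians of 73.1% and 61.4%. The interval for the 7 of 10, 39.7% to 89.2%, holds the 44.2% over all genes. Both *Os9* pairs, in which the *Wtap*-BKO peak stood higher, hold the same *Wtap*-BKO peak, so they are not independent. Over the ordered pairs of all named genes the medians were 61.2% and 65.2%. When peaks were ranked by fold enrichment, the *Wtap*-BKO peak stood lower in 5 of 17 chaperone pairs and again in 7 of 10 degradation pairs, against 49.2% of pairs over all genes. The median difference (*Wtap*-BKO minus *Wtap*flox/flox) by fold was 15.2 and -15.5 percentage points in these classes, against 0.159 over all named genes. These are descriptions of 1 pool per genotype, and the difference between the classes was not tested.

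**Figure D2:**
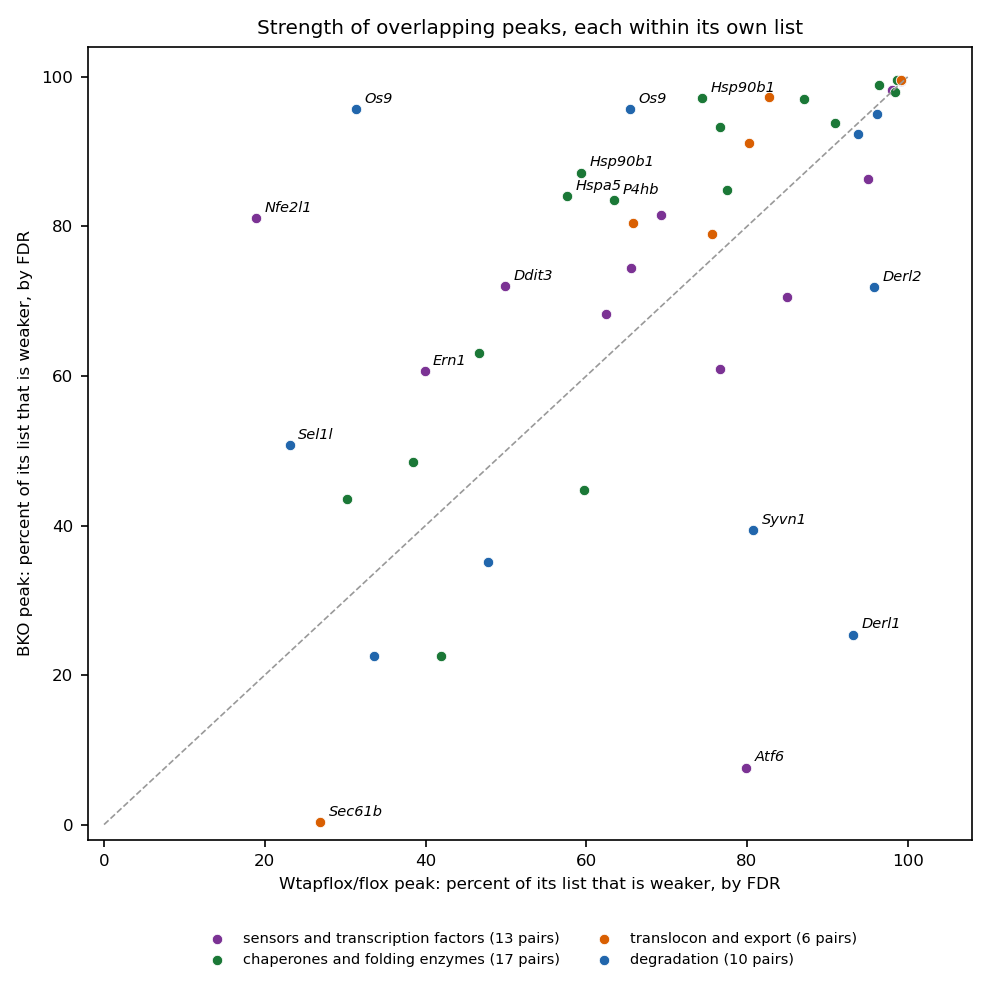
Each point is 1 of the 46 pairs of overlapping peaks, with the percent of the *Wtap*flox/flox list that is weaker by false discovery rate on the x axis and the same for the *Wtap*-BKO list on the y axis. The dashed line marks equal standing, gene names mark differences of at least 20 percentage points, and *Atf6*, *Derl1* and *Syvn1* lie far below the line while *Nfe2l1* and *Os9* lie far above it.

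The membrane sensors each had a peak in both lists at the same place, but they stood differently. *Atf6*, which is cut in the Golgi to free a transcription factor, had 1 *Wtap*flox/flox peak on the minus strand of chromosome 1 (GRCm38, 170709709 to 170709978) with a log10 false discovery rate of -27.8, stronger than 79.9% of its list. The *Wtap*-BKO peak covered 91 of its 270 bases, had a log10 false discovery rate of -2.24 and was stronger than 7.62% of its list. Its fold enrichment was 2.07, against 7.83 for the *Wtap*flox/flox peak, each within its own genotype. *Atf6* had the largest drop in standing of the 43 ordered member pairs.

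*Eif2ak3* encodes PERK, the kinase that slows translation by phosphorylating eIF2α. Its 2 *Wtap*flox/flox peaks, stronger than 76.7% and 85.0% of their list, were both covered by *Wtap*-BKO peaks, stronger than 60.9% and 70.5% of theirs. Of these, the peak at 70904196 to 70904616 on the plus strand of chromosome 6 had its centre 835 bp from the 3ʹ end of the gene. *Ern1* encodes IRE1α, the RNase that splices *Xbp1* mRNA, and went the other way. Its *Wtap*flox/flox peak of 240 bases was stronger than 39.9% of the list, and the *Wtap*-BKO peak of 420 bases over it was stronger than 60.6%.

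*Xbp1* and *Atf4*, transcription factors downstream of the sensors, had overlapping peaks in both lists. *Xbp1* had a single peak in each list, centred 949 and 934 bp from the 3ʹ end of the gene, and 477 bases were shared. The log10 false discovery rate was -167 in controls and -121 in *Wtap*-BKO mice, at 98.0% and 98.2% of the lists. The fold enrichment of the *Xbp1* peak was 5.60 in controls and 4.19 in *Wtap*-BKO mice. *Atf4*, the factor translated when eIF2α is phosphorylated, had 3 peaks in each list at the same 3 places. Their fold enrichments were 2.90, 1.62 and 1.79 in controls and 2.49, 1.67 and 1.79 in *Wtap*-BKO mice. At each place the *Wtap*-BKO peak stood slightly higher in its list, by 5.78 to 12.2 percentage points.

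*Ddit3* encodes CHOP, a factor of prolonged ER stress. A peak that starts near the 5ʹ end and is split over 2 blocks was stronger than 49.9% of the *Wtap*flox/flox and 72.0% of the *Wtap*-BKO list. A 3ʹ peak (127295816 to 127296288 on the plus strand of chromosome 10 in *Wtap*flox/flox) was stronger than 95.1% and 86.3%, with fold enrichments of 5.82 and 3.70. Both lists hold a peak of *Mars* on the opposite strand that reaches into it, so the assignment of the 3ʹ peak to *Ddit3* is uncertain.

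*Nfe2l1* had the most exonic bases under peaks of all members, with 2872 in controls and 2576 in *Wtap*-BKO mice. Its *Wtap*flox/flox peak in the 3ʹ part of the gene (minus strand of chromosome 11, 96818699 to 96821257) covered 1825 bases with a fold enrichment of 17.9 and a false discovery rate listed as 0. In *Wtap*-BKO mice the same stretch held 3 shorter peaks of 1257, 120 and 211 bases, with fold enrichments of 7.76, 1.46 and 1.57. The 5ʹ peak, in 3 blocks, had a false discovery rate listed as 0 in both lists. Its fold enrichment was 11.1 in *Wtap*flox/flox, higher than 71.8% of the list, and 40.2 in *Wtap*-BKO mice, higher than 99.3%. The long 3ʹ peak thus lay under 3 shorter *Wtap*-BKO peaks, which shared 1558 of its 1825 bases. The 5ʹ peak was among the most enriched of the *Wtap*-BKO list. A small peak between the 3ʹ and 5ʹ peaks, stronger than 18.9% of the *Wtap*flox/flox list, was stronger than 81.1% of the *Wtap*-BKO list. *Creb3l2*, a membrane-bound factor that drives secretory genes, had a single *Wtap*flox/flox peak (271 bases, log10 false discovery rate -9.23, fold enrichment 6.07) and none in the *Wtap*-BKO list.

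**Figure D3:**
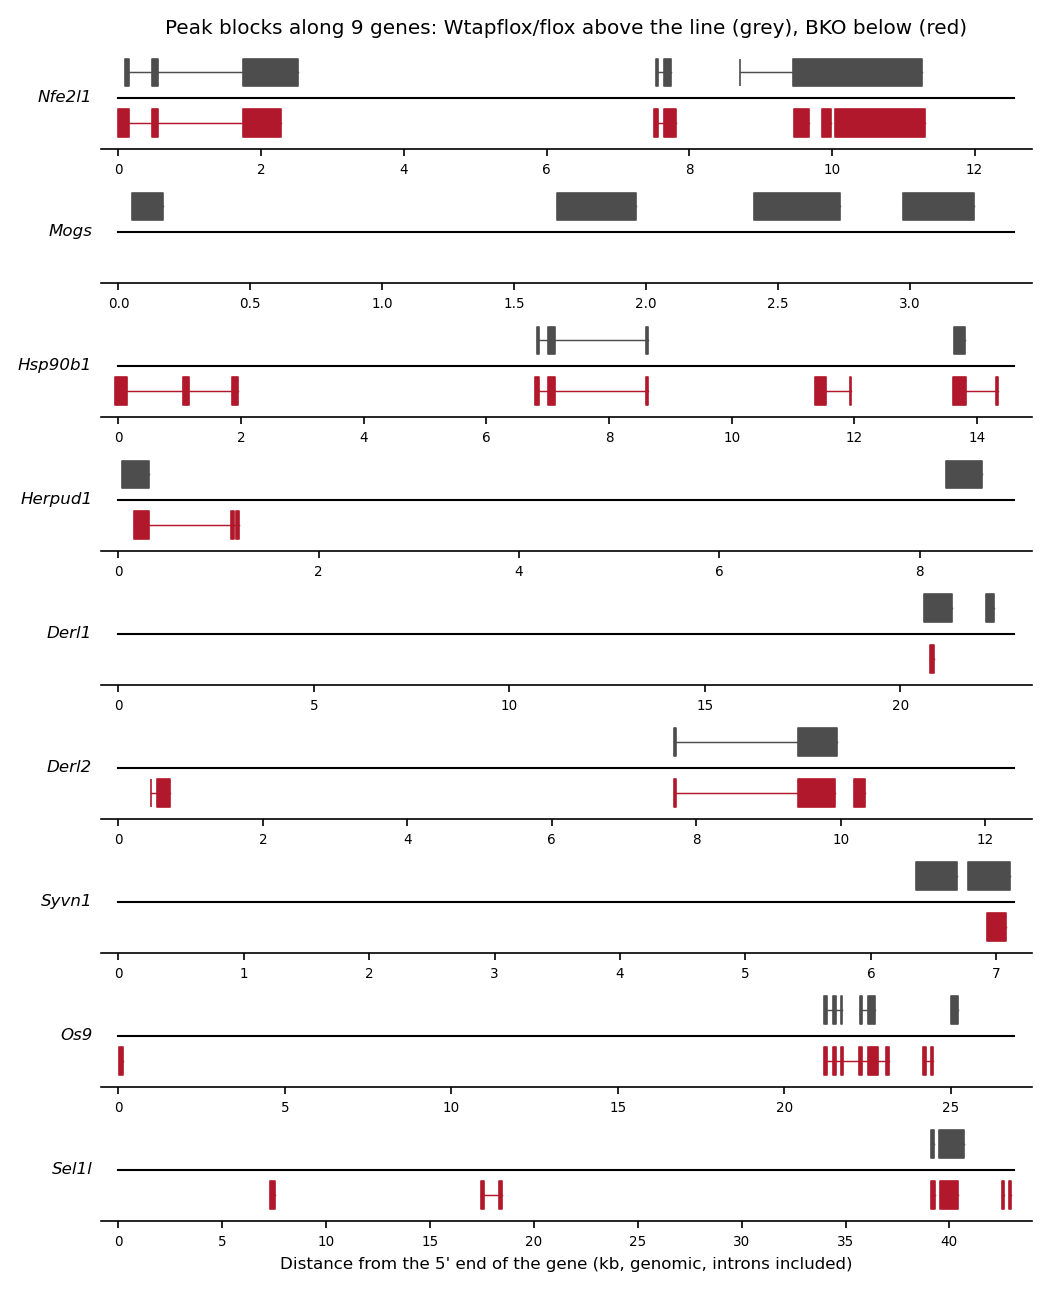
Peak blocks of 9 genes, chosen after their values were seen, are drawn by distance in kb from the 5ʹ end of the gene, introns included, with the *Wtap*flox/flox peaks above the line and the *Wtap*-BKO peaks below it. Thin lines join the blocks of 1 peak, and the 3ʹ peaks of *Mogs*, *Herpud1*, *Derl1* and *Syvn1* lack a *Wtap*-BKO peak in whole or in part.

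Major ER chaperones had strong peaks in both genotypes. *Hspa5* encodes BiP, the Hsp70 of the ER lumen. Its 3ʹ peak (plus strand of chromosome 2, 34775628 to 34776378) had a false discovery rate listed as 0 in both lists and shared 721 bases, with fold enrichments of 8.81 in controls and 4.74 in *Wtap*-BKO mice. Its second, internal peak was stronger than 57.6% of the *Wtap*flox/flox and 84.1% of the *Wtap*-BKO list. *Calr*, the soluble lectin chaperone for glycoproteins, had 2 peaks in each list. They stood at 98.7% and 87.1% of the control list and at 99.6% and 97.1% of the *Wtap*-BKO list. The fold enrichment of the 3ʹ peak of *Calr* was higher than 24.8% of the *Wtap*flox/flox and 63.5% of the *Wtap*-BKO list.

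Several chaperones had further peaks in *Wtap*-BKO mice. *Hsp90b1*, the Hsp90 of the ER, had 2 *Wtap*flox/flox peaks, stronger than 74.4% and 59.4% of the list, and the overlapping *Wtap*-BKO peaks stood at 97.2% and 87.2%. The *Wtap*-BKO list added 2 peaks, at 86693503 to 86694082 and at 86703489 to 86705509 on the minus strand of chromosome 10, with log10 false discovery rates of -7.50 and -7.39. *Canx*, the membrane-bound partner of calreticulin, had 1 *Wtap*flox/flox and 3 *Wtap*-BKO peaks. The shared peak, in 4 blocks, was stronger than 76.6% and 93.3% of the lists, and the stronger of the added peaks lay 134 bp from the 5ʹ end with a log10 false discovery rate of -5.55. *Dnajb9*, a co-chaperone of BiP, had a shared peak of 570 bases, stronger than 98.4% and 98.0% of the lists. A further *Wtap*-BKO peak lay 27 bp from the 5ʹ end of *Dnajb9*, with a log10 false discovery rate of -7.70 and a fold enrichment of 13.7. The added peaks of *Hsp90b1*, *Canx* and *Dnajb9* thus included peaks in the 5ʹ part of the gene, that of *Hsp90b1* centred 1054 bp from the 5ʹ end. This was not a trait of the members as a set. Of the 25 *Wtap*-BKO member peaks with no *Wtap*flox/flox peak on them, 4 were centred within 1000 bp of the 5ʹ end. The interval, 6.40% to 34.7%, holds the 16.3% of all such peaks in genes of at least 3000 bp.

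Protein disulfide isomerases, which form and reshuffle disulfide bonds, varied. *Pdia3* had 1 peak in each list, with 390 shared bases, and its fold enrichment was higher than 50.7% of the *Wtap*flox/flox and 91.6% of the *Wtap*-BKO list. *Pdia4* went the other way by fold, from higher than 67.6% to higher than 36.5%, although its false discovery rate stood at 91.0% and 93.9%, and it had a further weak *Wtap*-BKO peak. *Pdia6* had peaks in both lists with no shared base. Its *Wtap*flox/flox peak of 91 bases lay 569 bp from the 3ʹ end (log10 false discovery rate -5.52), and its 2 *Wtap*-BKO peaks lay 6162 and 5085 bp from that end (-2.50 and -5.39). *P4hb* had 3 *Wtap*flox/flox peaks that overlap each other in part, and 2 of them were each covered by the same 2 *Wtap*-BKO peaks, so its pairs are not independent. The other, of 90 bases, was stronger than 9.68% of its list and lacked a *Wtap*-BKO peak.

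*Mogs*, the glucosidase that removes the outermost glucose from new N-glycans, had 4 peaks on the plus strand of chromosome 6 in *Wtap*flox/flox mice and none in the *Wtap*-BKO list, the most peaks of any member listed for 1 genotype alone. From 5ʹ to 3ʹ their log10 false discovery rates were -2.52, -6.11, -12.6 and -18.0, and their fold enrichments 7.87, 3.61, 5.70 and 6.37. The 2 strongest lay 824 and 287 bp from the 3ʹ end of the gene. *Ganab*, the glucosidase that acts next, had 1 peak in each list sharing 151 bases, stronger than 46.6% and 63.1% of the lists. *Uggt1*, which re-glucosylates misfolded glycoproteins, likewise had 1 shared peak in each, stronger than 77.5% and 84.9%.

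Of the remaining co-chaperones, *Dnajc3*, an inhibitor of PERK, had 2 peaks in the *Wtap*-BKO list only, with log10 false discovery rates of -8.01 and -5.02. *Hyou1*, the exchange factor of BiP, had 1 in the *Wtap*-BKO list only, of 121 bases and stronger than 17.3% of the list. *Dnajb11* had 2 *Wtap*flox/flox peaks, of which the one at 22872139 to 22872349 on chromosome 16 had no *Wtap*-BKO peak on it (log10 false discovery rate -5.41). *Dnajc10*, a disulfide reductase, had 2 peaks in each list at the same places, none above 50% of its list.

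In the translocon, the accessory subunits had the strong peaks and the channel had few. *Sec62* had its downstream peak of 570 bases (plus strand of chromosome 3, 30818508 to 30819077) at identical borders in both lists, with a false discovery rate listed as 0 in each. The fold enrichment of this peak was 13.2 in *Wtap*flox/flox, higher than 79.7% of the list, and 6.19 in *Wtap*-BKO mice, higher than 61.7%. *Sec63*, the J-domain partner of BiP at the channel, had 3 peaks in each list, each overlapping its counterpart. They stood between 65.8% and 80.3% of the *Wtap*flox/flox list and between 79.0% and 91.1% of the *Wtap*-BKO list. From 5ʹ to 3ʹ their fold enrichments were 15.2, 5.48 and 3.87 in *Wtap*flox/flox and 8.53, 5.92 and 4.49 in *Wtap*-BKO mice. An unnamed gene has a peak on the opposite strand at the first *Sec63* peak. *Sec61a1*, the pore, had 1 *Wtap*flox/flox peak of 151 bases (log10 false discovery rate -4.91) and none in *Wtap*-BKO mice. *Sec61b*, a small channel subunit, had a 5ʹ peak in both lists, stronger than 26.9% and 0.342% of them.

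The vesicle coat genes among the members shared no peak between the genotypes, while the coat gene *Sec24b*, which is not a member, did. *Sec31a*, an outer coat subunit, had a *Wtap*flox/flox peak 315 bp from the 3ʹ end (minus strand of chromosome 5, 100361859 to 100362069) with a log10 false discovery rate of -35.8, stronger than 84.4% of its list. Its only *Wtap*-BKO peak lay 46464 bp from that end and was stronger than 21.3% of its list. *Sec24a*, the cargo-binding coat subunit, had 1 peak in *Wtap*flox/flox only (log10 false discovery rate -7.43, fold enrichment 5.04).

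Several 3ʹ peaks of ER-associated degradation genes were missing or shorter in *Wtap*-BKO mice. *Herpud1*, a scaffold of the degradation complex induced by ER stress, had a 3ʹ peak of 360 bases in *Wtap*flox/flox mice (plus strand of chromosome 8, 94394689 to 94395048). It had a log10 false discovery rate of -72.9 and a fold enrichment of 3.31, at 93.3% of the list by the former, and the *Wtap*-BKO list had no peak on it. It was the strongest *Wtap*flox/flox peak of any member without a *Wtap*-BKO peak on it. The weak 5ʹ peak of *Herpud1* was present in both lists, stronger than 33.6% and 22.5% of them.

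*Derl1* and *Derl2* encode derlins, membrane proteins of the retrotranslocation channel. *Derl1* had a peak of 720 bases in *Wtap*flox/flox mice (minus strand of chromosome 15, 57871091 to 57871810), stronger than 93.2% of the list. The *Wtap*-BKO peak within it covered 121 bases and was stronger than 25.4% of its list. A second *Derl1* peak, 615 bp from the 3ʹ end, had a log10 false discovery rate of -13.4 in *Wtap*flox/flox and no *Wtap*-BKO peak on it. *Derl2* kept nearly the whole of its *Wtap*flox/flox peak, with 539 of 569 bases shared, but the fold enrichments were 6.43 and 1.99, higher than 49.1% and 8.70% of the lists. The *Wtap*-BKO list had 2 further *Derl2* peaks, the stronger with a log10 false discovery rate of -5.32. In both derlins the main peak thus stood lower in the *Wtap*-BKO list.

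The ubiquitin ligase *Syvn1* (HRD1) and its partner *Sel1l* differed in how many peaks the *Wtap*-BKO list held. *Syvn1* had 2 neighbouring 3ʹ peaks of 329 bases in *Wtap*flox/flox mice, stronger than 74.2% and 80.8% of the list. The *Wtap*-BKO list had a single peak of 150 bases on the second, stronger than 39.4% of its list, and none on the first. *Sel1l* had 2 *Wtap*flox/flox and 6 *Wtap*-BKO peaks, the most of any member. Its long peak on the minus strand of chromosome 12 covered 1197 bases in controls and 868 in *Wtap*-BKO mice, all within the former, and was stronger than 96.2% and 95.1% of the lists. By fold enrichment this peak was higher than 83.3% and 60.3% of the lists, and the paired *Syvn1* peak higher than 61.8% and 22.9%. Of the 4 added *Wtap*-BKO peaks, those at 91830712 to 91831730 and at 91841642 to 91841852 had log10 false discovery rates of -13.7 and -8.41, and the other 2, near the 3ʹ end, had -2.91 and -3.35.

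The lectins that pick glycoproteins for degradation were also mixed. *Os9* had 2 *Wtap*flox/flox peaks, stronger than 65.4% and 31.4% of the list, under 1 *Wtap*-BKO peak of 718 bases in 6 blocks that was stronger than 95.7%. A further *Wtap*flox/flox peak (log10 false discovery rate -11.7) had no *Wtap*-BKO peak on it. A *Wtap*-BKO peak 88 bp from the 5ʹ end of *Os9* (-7.31) and another 2671 bp from the 3ʹ end (-4.95) had no *Wtap*flox/flox peak on them. Among the mannosidase-like EDEM proteins, *Edem1* had a peak in *Wtap*flox/flox only (180 bases, log10 false discovery rate -12.2). *Edem2* stood at 47.8% and 35.1%, and *Edem3* at 93.8% and 92.3%, where the *Wtap*-BKO peak covered 510 of 929 bases. *Edem3* had a further weak *Wtap*-BKO peak, stronger than 20.2% of the list.

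*Man1a*, a mannosidase of the Golgi, and *Vcp*, the ATPase that pulls substrates out of the membrane, each had 2 peaks in the *Wtap*-BKO list only. The stronger *Man1a* peak had a log10 false discovery rate of -10.7 and a fold enrichment of 6.34. The stronger *Vcp* peak, of 91 bases, lay 44 bp from the 3ʹ end with -7.97 and 3.93.

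The position of member peaks was taken as the genomic distance, introns included, of a peak's middle base from the ends of its gene in the GRCm38.p6 table, for genes of at least 3000 bp. In *Wtap*flox/flox mice, 23 of 59 member peaks were centred within 1000 bp of the 3ʹ end (39.0%, interval 27.6% to 51.7%), against 21.7% of all peaks. In *Wtap*-BKO mice there were 18 of 69 (26.1%, interval 17.2% to 37.5%), against 19.3%. The intervals of the 2 genotypes overlap, and the difference between them was not tested. By class, 13 of 24 *Wtap*flox/flox peaks of chaperones and folding enzymes lay there (54.2%, interval 35.1% to 72.1%). These 13 include the *P4hb* peaks, which overlap each other in part. There were 5 of 15 in the degradation class, 4 of 11 among sensors and 1 of 9 in translocon and export, with intervals that hold 21.7%. Among the 16 *Wtap*flox/flox member peaks with no *Wtap*-BKO peak on them, 8 were near the 3ʹ end (interval 28.0% to 72.0%), against 26.3% of all such peaks. Among the 43 that were found, 15 were (34.9%), against 19.6%. Among the 25 *Wtap*-BKO member peaks with no *Wtap*flox/flox peak on them, 4 were (interval 6.40% to 34.7%), against 18.8%. The median gene span was 22.4 and 21.8 kb for members, against 26.0 and 26.1 kb for all genes. These are medians per gene, and short genes such as *Mogs* (3397 bp) and *Hspa5* (4440 bp) had peaks near the 3ʹ end. The part of gene length in these shares was not tested.

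**Figure D4:**
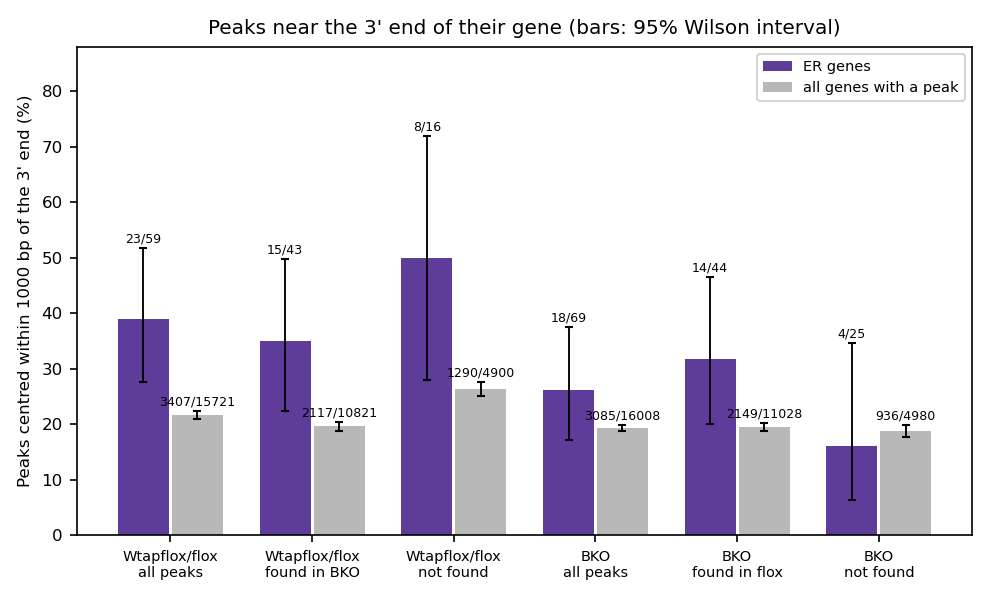
Bars give the percent of peaks centred within 1000 bp of the 3ʹ end of their gene, for the ER genes and for all genes with a peak, with 95% Wilson intervals and the counts above them. Among *Wtap*flox/flox peaks without a *Wtap*-BKO peak, 8 of 16 in ER genes and 1290 of 4900 over all genes lay there.

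Peaks of these genes were often spliced over several blocks. In *Wtap*flox/flox mice 21 of 62 member peaks had 2 or more blocks (33.9%, interval 23.3% to 46.3%), against 15.4% of the whole list. In *Wtap*-BKO mice there were 33 of 72 (45.8%, interval 34.8% to 57.3%), against 19.8%. The share was highest among *Wtap*-BKO peaks of chaperones and folding enzymes, at 19 of 28. The block count follows how many exons a peak spans, and exon lengths were not used here.

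Other genes of the pathway were followed with a list of 96 symbols, of which 79 had a peak. Of these, 65 were listed for both genotypes, 4 for controls alone and 10 for *Wtap*-BKO mice alone. Of their *Wtap*flox/flox peaks, 94 of 127 were found in the *Wtap*-BKO list (74.0%), close to the members. *Wtap*-BKO peaks stood lower than their *Wtap*flox/flox partners in 52 of 94 pairs, against 44.2% over all genes. The eIF2α phosphatase subunits *Ppp1r15a* and *Ppp1r15b*, which end the translational arrest, had 4 peaks each in both lists, the strongest of which stood at 84.9% and 96.8% of the control list and at 79.7% and 92.5% of the *Wtap*-BKO list. These genes were named as examples after their values were seen.

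Marker genes of other cell types were set beside these results. Brown adipocyte markers had peaks for 14 of 14 genes, 13 in both lists, with 36 *Wtap*flox/flox and 34 *Wtap*-BKO peaks. Macrophage markers (8 of 9 genes with a peak) had 8 and 22 peaks, with *Mrc1*, *Ctss*, *Msr1* and *Laptm5* listed for *Wtap*-BKO mice alone. Fibroblast markers (6 of 6 genes) had 7 and 8 peaks, lymphocyte markers (4 of 8) had 4 and 8, and skeletal muscle markers (7 of 8) had 2 and 10. Plasma cells are rich in ER, and their markers (4 of 8) had 4 and 6 peaks. Of these, *Sdc1*, *Irf4* and *Derl3* were listed for both genotypes and *Prdm1* for *Wtap*-BKO mice alone, while *Jchain*, also under its older symbol *Igj*, *Mzb1* and *Tnfrsf17* had no listed peak. By false discovery rate, the *Wtap*-BKO peak stood lower in 9 of 23 ordered pairs of brown adipocyte markers and 2 of 4 of plasma cell markers. It stood lower in 1 of 8 macrophage, 0 of 7 fibroblast, 0 of 4 lymphocyte and 0 of 2 skeletal muscle pairs. A low share was thus not particular to the chaperones. The part of these cell types in the added *Wtap*-BKO peaks of the ER genes, or in the standing of their pairs, was not tested.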

How the data were processed

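MeRIP-seq of iBAT gave 1 peak list per genotype. Per the labels, 150 bp paired reads were processed with fastp 0.19.11, BWA 0.7.12 and HOMER 4.9.1, with GRCm38.p6 as the build. The methods name MACS2 for peaks, while the layout of the lists is that of exomePeak, so the caller is not settled. The deposited columns hold the authors' p-value of each peak, scores that hold the p-value and the false discovery rate as log10 values, and the enrichment as a fold (ratio of IP over input within a genotype, scaling not described). No listed false discovery rate is above 0.05.

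Members were matched by symbol, and peaks by at least 1 shared exonic base on the same strand, in Python 3.11.15 with numpy 2.4.6, pandas 2.3.3 and scipy 1.17.1. The matching was tested on simulated data. Figures were drawn with matplotlib 3.10.9. Wilson intervals (95%) were given for shares and take peaks to be independent. With 1 pooled sample per genotype no test was made. Gene ends were read from RefSeq's table of genes (GRCm38.p6), in which 98.3% and 98.2% of the matched peaks had their centre inside their gene. Peak, motif and protein sequences were not analysed here.

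The members, their 4 classes and the gene lists were chosen with earlier results of these data known. Full values are given for members with peaks in 1 list, sensors and transcription factors, the 2 members of each other class with the strongest *Wtap*flox/flox peak, members with an unmatched peak under 1e-05, and members with a peak under or over several peaks of the other list. Others are named for context. Alternatives were thresholds of 1e-05 and 1e-10, overlap of at least 50% of bases, any peak on the same gene, current symbols, other windows and ranking by fold.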

Additional observations from a re-analysis of the deposited data

How the results depend on the processing

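Of the alternative values, 38 were counted as unchanged and 17 as moved. A share or median counted as unchanged when it lay inside the interval around the main value, which is wide for small classes. In the translocon and export class, the *Wtap*-BKO peak stood lower in 1 of 5 pairs, and in 3 of 6 by fold. This counted as unchanged, because the interval was 3.62% to 62.4%. The count of 38 is therefore not a measure of stability. When both lists were held to a false discovery rate under 1e-05, 10 members had a peak in *Wtap*flox/flox only in place of 5, and the median *Wtap*-BKO member peak covered 299 bases in place of 211. Under 1e-10, 20 members had a peak in both lists and 1 in *Wtap*-BKO only, 88.2% of member *Wtap*-BKO peaks had a *Wtap*flox/flox peak on them, and 4 members had an unmatched *Wtap*-BKO peak in place of 14. When peaks under 1e-05 were looked up in the whole other list, 75.5% of member *Wtap*-BKO peaks were found. When any peak on the same gene counted, 87.1% of control and 90.3% of *Wtap*-BKO member peaks were found, and 5 and 4 members had an unmatched peak in place of 13 and 14. With a window of 500 bp, 11.9% of control and 8.70% of *Wtap*-BKO member peaks lay near the 3ʹ end. For this window, for both lists held to a threshold, and for any peak on the same gene, no values over all genes are given. These member values therefore cannot be set beside a background. Ranked by fold enrichment, the median standing of member peaks was 32.5% and 35.6%, and with the strongest peak of each member it was 79.9% and 76.7%, for *Wtap*flox/flox and *Wtap*-BKO. Thresholds and windows change which peaks enter, and no other cause was tested. The comparison of pairs and its alternatives were added after the data were seen. No paired analysis was possible because each genotype has 1 pooled sample, and for the same reason no replicate could be left out. Depth is unknown, so a weak peak missing from a list may lie just under its threshold.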
